A study of Mus musculus with 2 samples.

Results

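Open chromatin was described at the 6 genes for kainate and delta glutamate receptor subunits Grik1, Grik2, Grik3, Grik4, Grik5 and Grid1, out of 21938 protein-coding genes in the GENCODE M21 annotation of the mouse assembly mm10. The genes were taken by symbol. The assay was DNase-seq, in which DNase I cuts accessible DNA and the density of cuts marks promoters and other regulatory DNA that nucleosomes leave free. Frontal cortex was taken from B6CASTF1/J mice, an F1 hybrid strain, that were male and 14 days old, and gave 2 libraries. The libraries form 1 group, are numbered as biological replicates 1 and 2, and are each labelled as tissue of 3 males. Their tissue samples have separate identifiers and 1 donor number in common, so the difference between them may be technical in part. All values below are descriptions, since 1 group allows no test between conditions.

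Kainate receptors are glutamate-gated cation channels built of subunits in tetramers. Grik1, Grik2 and Grik3 encode the subunits GluK1, GluK2 and GluK3, which form channels by themselves. Grik4 and Grik5 encode GluK4 and GluK5, which bind kainate with high affinity and reach the membrane in combination with the first kind. The receptors act on both sides of cortical and hippocampal synapses, where they tune transmitter release and carry slow excitatory currents, and the Neto proteins are their auxiliary subunits. Grid1 encodes the delta receptor subunit GluD1, an organiser of synapses that is joined to presynaptic neurexins by secreted cerebellins.

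Sequences of 7 open regions are shown because the results below turn on them: the promoter-proximal regions of Grik2 and Grik4, the Grik5 region upstream of its start, and the distal regions of Grik1, Grik3, Grik4 and Grid1 that are tallest by the mean of both libraries. Each is read from the RefSeq copy of GRCm38.p6, the assembly also called mm10, runs 5′ to 3′ along the strand of the receptor gene, and leaves out annotated exons of protein-coding genes. The letters and motif matches are those of the reference assembly, and the alleles of the hybrid mice may differ from them. Capitals mark bases that lay inside a footprint in both libraries, a footprint being a short stretch of reduced cutting within open DNA that a bound protein may cover.

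Grik1 intron 1 region, chr16:88174121-88174380, minus strand: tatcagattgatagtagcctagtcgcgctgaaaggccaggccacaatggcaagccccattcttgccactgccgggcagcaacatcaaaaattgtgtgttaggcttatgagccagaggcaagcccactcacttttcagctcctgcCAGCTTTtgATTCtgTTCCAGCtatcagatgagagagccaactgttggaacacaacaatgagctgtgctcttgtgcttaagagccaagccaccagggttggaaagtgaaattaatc
Grik2 promoter region, chr10:49788767-49789020, minus strand: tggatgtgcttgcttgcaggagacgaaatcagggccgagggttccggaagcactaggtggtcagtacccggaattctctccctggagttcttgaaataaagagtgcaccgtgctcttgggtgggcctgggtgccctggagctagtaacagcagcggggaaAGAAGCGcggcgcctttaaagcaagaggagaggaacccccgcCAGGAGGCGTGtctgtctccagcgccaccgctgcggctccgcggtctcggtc
Grik3 intron 13 region, chr4:125702981-125703220, plus strand: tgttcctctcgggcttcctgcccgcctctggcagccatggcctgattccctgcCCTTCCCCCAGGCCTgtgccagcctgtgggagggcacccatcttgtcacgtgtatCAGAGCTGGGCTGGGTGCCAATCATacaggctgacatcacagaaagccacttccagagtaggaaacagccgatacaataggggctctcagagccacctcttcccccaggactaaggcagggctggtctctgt
Grik4 promoter region, chr9:42944761-42945060, minus strand: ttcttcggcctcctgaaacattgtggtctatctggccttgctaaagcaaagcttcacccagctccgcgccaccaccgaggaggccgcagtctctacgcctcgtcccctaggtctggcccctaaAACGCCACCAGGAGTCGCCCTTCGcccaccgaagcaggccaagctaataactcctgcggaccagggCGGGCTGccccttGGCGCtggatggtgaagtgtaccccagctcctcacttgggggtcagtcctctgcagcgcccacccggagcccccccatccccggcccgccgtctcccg
Grik4 intron 8 region, chr9:42642941-42643160, minus strand: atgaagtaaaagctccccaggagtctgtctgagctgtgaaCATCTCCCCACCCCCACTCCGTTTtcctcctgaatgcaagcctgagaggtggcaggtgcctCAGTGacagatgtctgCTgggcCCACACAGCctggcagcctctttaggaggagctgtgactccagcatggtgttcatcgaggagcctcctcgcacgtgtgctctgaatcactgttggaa
Grik5 upstream region, chr7:25073921-25074220, minus strand: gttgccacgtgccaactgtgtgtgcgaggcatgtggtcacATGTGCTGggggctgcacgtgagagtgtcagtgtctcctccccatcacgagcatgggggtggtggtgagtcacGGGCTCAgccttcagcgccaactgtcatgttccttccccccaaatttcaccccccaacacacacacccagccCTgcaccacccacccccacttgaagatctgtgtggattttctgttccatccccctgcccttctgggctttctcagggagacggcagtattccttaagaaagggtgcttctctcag
Grid1 intron 2 region, chr14:34823258-34823440, plus strand: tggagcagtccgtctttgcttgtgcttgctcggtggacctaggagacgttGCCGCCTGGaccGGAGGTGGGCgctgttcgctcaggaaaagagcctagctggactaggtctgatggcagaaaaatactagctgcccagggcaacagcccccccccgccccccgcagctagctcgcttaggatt

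A motif match is counted in a footprint where its middle base lies in it. In the intron 13 region of Grik3 the capitals cover 40 of 240 bases in 2 blocks. The second holds, at bases 124 to 129, the reverse complement of TTGGCA, part of the sequence recognised by nuclear factor I proteins. The promoter region of Grik4 has 36 of 300 bases in capitals, and GGGCGG, the GC box of Sp and Klf factors, at bases 187 to 192 had its middle base in a footprint of replicate 1, while the overlapping footprint of replicate 2 ended short of it and both covered only its last bases. The tallest distal region of Grik4 has 40 of 220 bases in capitals and carries the AP-1 letters TGANTCA (bases 205 to 211), which no footprint touches. It also holds the E-box CAGGTG (bases 93 to 98), which a footprint of replicate 2 overlaps without its middle base. The Meis letters TGACAG (bases 105 to 110) had their middle base in a footprint of replicate 1 alone. The piece of the Grik2 promoter region has 18 of 254 bases in capitals and none of the 18 motifs searched. The Grik5 upstream piece has 17 of 300 bases in capitals, and its reverse-strand TTGGCA at bases 10 to 15 had its middle base in a footprint of replicate 2 and not of replicate 1. The Grik1 and Grid1 pieces have 18 of 260 and 19 of 183 bases in capitals, with no motif match in the capitals. A match to a motif is a description of letters and not a binding site.

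Replicate 1 held 75753 peaks with a median height of 0.848 and replicate 2 held 77035 with a median of 0.801; a height is the authors' signal value, scaled per library in a unit that is not stated. Overlapping peaks of both libraries (at least 1 bp) were joined into 53623 shared regions, with a median log2 ratio (replicate 2 over replicate 1) of -0.06, and the central 95% of regions ran from -0.89 to 0.59. Here a promoter reaches 1000 bp to either side of each annotated start site of a gene, and a distal region lies farther than that from every start site of a protein-coding gene. Promoter peaks in both libraries were present at 7 of 8 markers of cortical excitatory neurons, 3 of 4 of interneurons, 1 of 4 of astrocytes, 3 of 5 of the oligodendrocyte lineage, 1 of 3 of microglia and 1 of 3 of vascular cells. Of 6 genes that mark other regions of the nervous system only Tcf7l2 had one. The tissue is a mixture, and an opening in few cells cannot be told apart from a weaker opening in many.

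Promoter peaks were called in both libraries at 4 of the 6 receptor genes, against 59.7% of all protein-coding genes and 83.8% of those of at least 100 kb. In replicate 1 the count was 4 of 6, where the backgrounds were 61.1% and 85.3%. In replicate 2 all 6 had a promoter peak, with backgrounds of 62.4% and 86.9%. The share of the 6 genes in both libraries, 66.7%, lay between those of all genes and of long genes. A call did not need the same height at each gene. The Grik1 promoter was called in replicate 1 at 0.502, whereas the lowest replicate 1 peak over Grik3 was 0.597. In replicate 2 the promoter peaks of Grik3 (0.692) and Grid1 (1.07) were taller than that of Grik1 (0.659). The count of 4 is therefore not a ranking by openness. By mean promoter height the order was Grik4 (2.10 ± 0.0489, SD, n = 2), Grik5 (1.77 ± 0.335), Grik2 (1.63 ± 0.520) and Grik1 (0.580 ± 0.111). The ranges of Grik5 and Grik2 overlap, Grik4 lies just above both, and Grik1 stands below all of them in both libraries. Among all genes whose promoter was called in both libraries, these 4 lay below the median, at percentiles 35.8, 29.6, 26.7 and 3.21. Long genes had lower promoters: medians were 3.03 and 2.96 over all such genes and 1.99 and 1.94 over those of at least 100 kb. Beside the long genes Grik4 (2.14 and 2.07) was above the median in both libraries. Grik2 (1.99 and 1.26) was level with it in replicate 1 and below it in replicate 2, and Grik1 was below it in both. Grik5 is shorter than 100 kb.

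**Figure D1:**
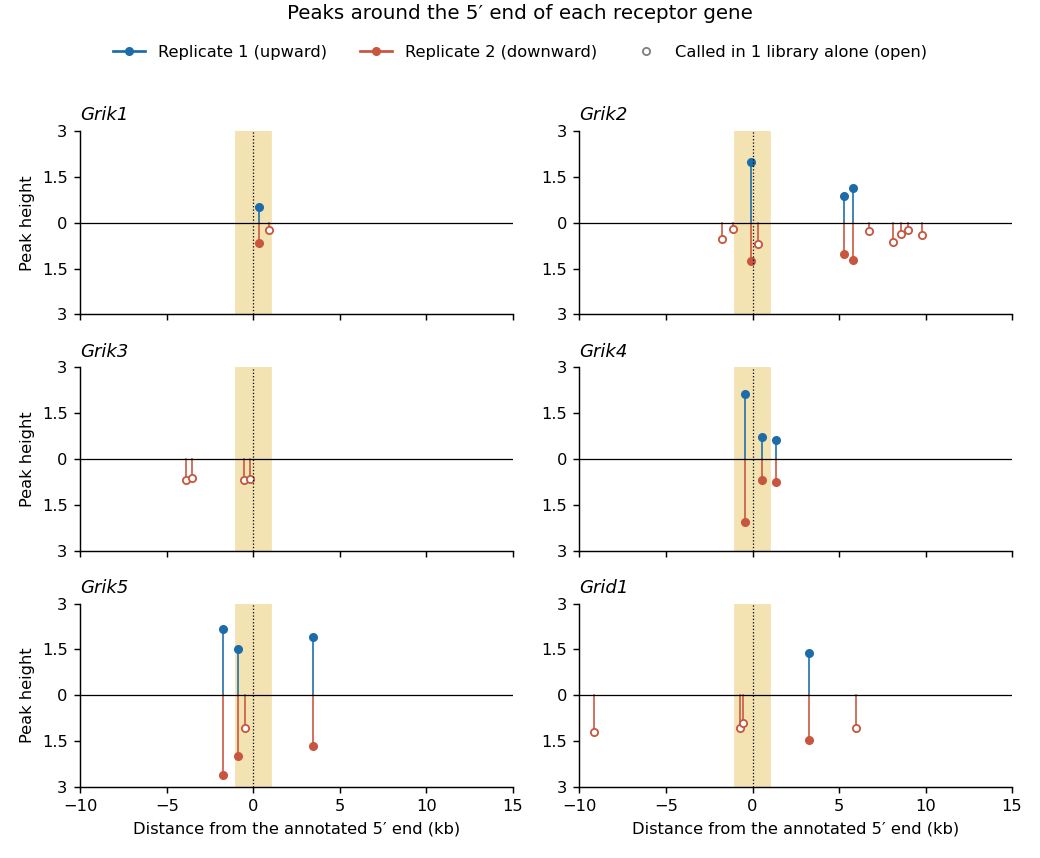
Peaks from 10 kb upstream to 15 kb downstream of the annotated 5′ end of each receptor gene (horizontal axis, kb), with the height in replicate 1 upward and in replicate 2 downward, filled where both libraries called the region and open where 1 did; the shaded band is 1000 bp on both sides of the 5′ end. Grik3 and Grid1 have only open symbols of replicate 2 in the band, and Grik2 has filled regions at its 5′ end and again more than 5 kb downstream.

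Grik1 (chromosome 16, 87895900 to 88290265, minus strand) had the lowest promoter peak of the 4, with heights of 0.502 in replicate 1 and 0.659 in replicate 2. Its region, chr16:88289501-88290380, is 880 bp wide and covers exon 1 with the 8 clustered start sites. Replicate 2 listed 1181 bases around the first start site in the deposited track, which holds false discovery rates under 0.05, and replicate 1 listed 382. The 115 bases upstream of the annotated gene hold a run of GT repeats and 1 GC box. All 5 distal regions of Grik1 were taller in replicate 1, and 4 of them lie in intron 1, which is 233409 bp long. The tallest, 116 kb into the gene, reached 1.21 and 1.08, above the promoter in both libraries. The next was 85.6 kb into the gene, at 1.10 and 0.834. The third by mean height lies in coding exon 10 (chr16:87949921-87950180) at 0.812 and 0.601.

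Grik2 (chromosome 10, 49094833 to 49788766, minus strand) had its open regions at the 5′ end and almost none elsewhere. The region at the first start sites, chr10:49788641-49789020, had heights of 1.99 and 1.26, the higher in replicate 1. A second set of start sites 5357 and 5507 bp downstream carried 2 more regions. Their heights were 1.13 and 1.21 at chr10:49782721-49783160, and 0.884 and 1.02 at chr10:49783261-49783700, so both were slightly taller in replicate 2. The peak at the first start sites also lies near the start of Gm48123, a transcript model on the opposite strand, and cannot be assigned to either. Replicate 2 called 8 further peaks that replicate 1 did not, all within 10 kb of the 5′ end, with heights from 0.209 to 0.684. In the remaining length of the gene there was 1 shared region, in intron 7 at 352 kb from the start, with heights of 0.657 and 0.484. The longest stretch without a peak of either library was 351 kb, or 49.2% of the gene and its flanks. Among 71 protein-coding genes within 1.2-fold of its length the median for that share was 18.6%, and 93.0% had a smaller share.

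Grik3 (chromosome 4, 125490700 to 125714173, plus strand) was the reverse case, with promoter peaks in replicate 2 alone and 1 tall region deep in the gene. Its single start site had no peak in replicate 1, which listed 1 base in the window (false discovery rate 0.0457), and 2 low peaks in replicate 2 at 0.692 and 0.667. The intron 13 region at chr4:125702981-125703220, 212 kb from the start, stood at 3.01 and 3.02. It is the tallest distal region of all 6 genes in both libraries, at percentiles 90.3 and 90.7 of all peaks of its library. A neighbouring peak in the same intron, 160 bp wide and called in replicate 2 alone, had a height of 0.901. The remaining peaks of 1 library alone, 5 in replicate 1 and 7 in replicate 2 with those at the promoter, lay between 0.592 and 0.734. The promoter of Grik3 has a GC content of 68.6%, in the highest of 10 equal GC classes, in which 85.2% of genes had their promoter called in both libraries and 3.88% in replicate 2 alone.

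Grik4 (chromosome 9, 42518135 to 42944493, minus strand) had the tallest promoter of the group and the most distal regions, 16. The promoter region chr9:42944761-42945060, 268 bp upstream of the start site, had nearly equal heights of 2.14 and 2.07. A second promoter region in intron 1 stood at 0.705 and 0.684. Of the distal regions 7 lie in intron 1, 13 in introns in all, 2 in coding exons (15 and 21) and 1 in the UTR part of exon 21. The tallest, chr9:42642941-42643160 in intron 8, reached 2.97 and 1.96, above the promoter in replicate 1 and below it in replicate 2. The next was a 660 bp wide region in intron 1 at chr9:42897341-42898000, with 1.34 and 1.21. The third was chr9:42573221-42573460 in intron 13, with 0.943 and 1.15. Replicate 1 alone called 2 peaks of above-median height (0.860 and 0.955) in intron 8, within 5 kb of the tallest region. The second annotated start site, 135794 bp inside the gene, had no peak in either library.

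Grik5 (chromosome 7, 25009849 to 25072346, minus strand) is the shortest of the genes at 62.5 kb, and no peak covered its start sites. The nearest region in both libraries, chr7:25073101-25073400, lies 755 bp upstream, with heights of 1.53 and 2.00. It is closer, at 455 bp, to a start site of Zfp574, a zinc finger gene transcribed away from Grik5. Zfp574 runs from 25072567 to 25083492 on the plus strand, so the region lies inside Zfp574 and cannot be assigned to either gene. Replicate 2 alone had a further peak of 1.08 in between, 415 bp from the Grik5 start. The tallest distal region by the mean, chr7:25073861-25074280, is next to chr7:25073101-25073400 and also inside Zfp574, at 2.19 and 2.61. The Grik5 upstream sequence printed above is taken from it. The others among the first 3 by the mean were chr7:25007701-25007900 (2.41 and 1.95), the tallest in replicate 1, and chr7:25009101-25009693 (1.99 and 2.23), both downstream of the gene. Of its 8 distal regions, 3 lie inside Grik5, 4 downstream of its 3′ end and 1 upstream. The main promoter of Zfp574 reached 10.6 and 11.7, far above every region of the receptor genes. Inside the gene, the intron 1 region chr7:25068781-25069025 stood at 1.92 and 1.66. Peaks of 1 library alone that were above its median height numbered 5: 1.23 and 1.23 in replicate 1, and 1.201, 0.859 and the 1.08 already given in replicate 2.

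Grid1 (chromosome 14, 34820108 to 35583379, plus strand) is the longest at 763 kb, and its promoter was called in replicate 2 alone. The peaks there, 608 and 548 bp upstream of the start, had heights of 1.07 and 0.926. Replicate 1 listed 29 bases in the window with a smallest false discovery rate of 0.0377, against 410 bases in replicate 2 with 0.00878. Replicate 2 alone also called peaks of 1.22 at 9.17 kb upstream and 1.08 at 6004 bp downstream. Both libraries met in intron 2 at 3.24 kb from the start, chr14:34823258-34823440, with heights of 1.39 and 1.46. It was the tallest distal region of Grid1 by the mean of both libraries and in replicate 2. All 11 lie in introns, 9 of them in the 5′ part of the gene before its midpoint. The next by the mean were chr14:35074721-35074980 in intron 4 (1.46 and 1.27) and chr14:34960261-34960580 in intron 3 (1.46 and 1.08), both taller in replicate 1 than the intron 2 region. The region chr14:35122221-35122431 in intron 4, the tallest of Grid1 in replicate 1, differed most between the libraries of all those at the 6 genes, at 1.60 and 0.542, a log2 ratio of -1.56.

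**Figure D2:**
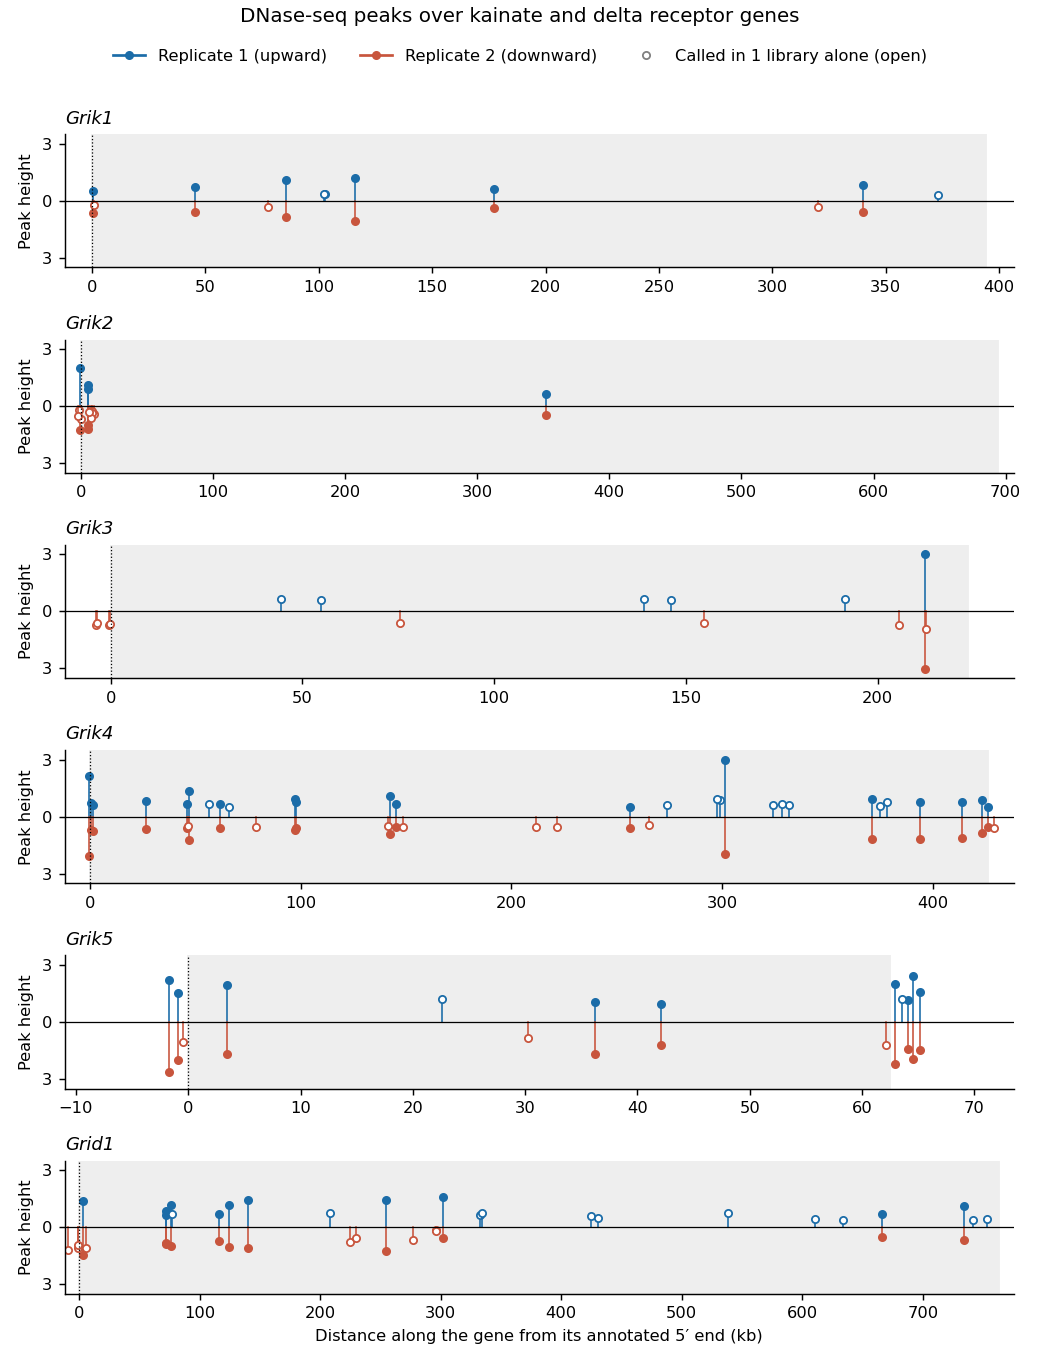
Peaks over the whole of each receptor gene, by distance from its annotated 5′ end (kb, shaded where the gene lies, with 10 kb flanks), with the height in replicate 1 upward and in replicate 2 downward, filled where shared and open where called in 1 library alone; promoters of neighbouring genes are left out. Grik2 has 1 shared region beyond its 5′ end, Grik3 has its tallest region near the 3′ end, and those of Grik4 run along the whole gene.

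Counted over the gene spans with 10 kb on both sides, the 6 genes held 51 shared regions: 7 at their own promoters, 42 distal and the rest at promoters of other genes. All 6 had at least 1 distal region, as had 46% of all protein-coding genes and 87% of those of at least 100 kb. Of the 42, 33 lie in introns, 12 of these in intron 1, 3 reach into coding exons, 1 into a UTR exon, 4 lie downstream and 1 upstream. Their median heights of 0.949 and 0.880 were close to the 0.920 and 0.851 of all 34563 distal shared regions. Of the 51 log2 ratios between the libraries, 48 lay within the central 95% of all shared regions, about the share that any set of regions would have there.

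**Figure D3:**
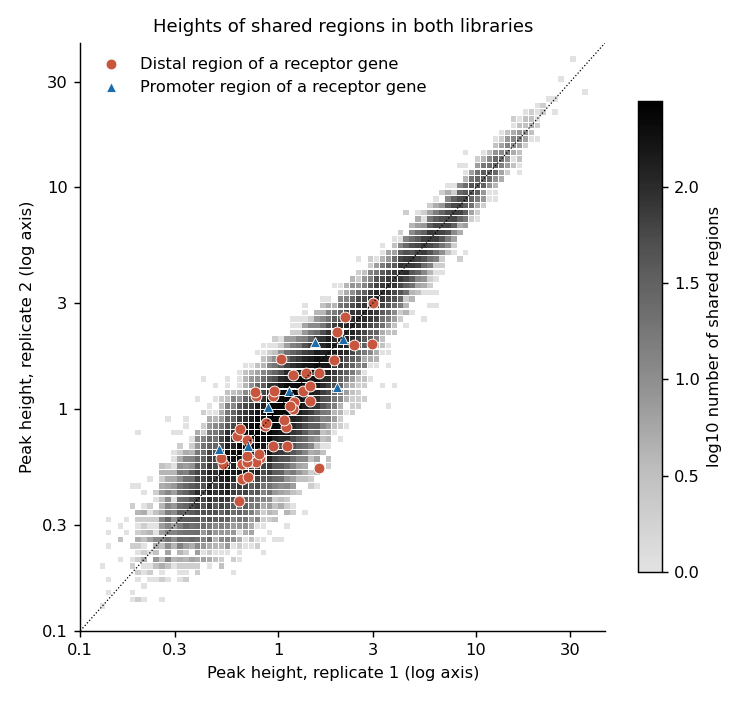
Height of each shared region in replicate 1 (horizontal, log axis) and replicate 2 (vertical, log axis), with all 53623 shared regions as grey squares shaded by their number and the regions of the receptor genes as circles (distal) and triangles (promoter); the dotted line marks equal heights. The receptor regions lie in the lower and middle part of the cloud, and the circle farthest below the line is the Grid1 region at 1.60 and 0.542.

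The density of distal regions per 10 kb differed widely among the genes: 0.970 at Grik5, 0.358 at Grik4, 0.140 at Grid1, 0.121 at Grik1, 0.0411 at Grik3 and 0.0140 at Grik2. The order of the lower genes rests on counting shared regions only: with the peaks of replicate 1 or replicate 2 alone Grik3 had 0.246 or 0.288 per 10 kb, above Grik1 (0.193 or 0.169), and Grik2 had 0.0140 or 0.112. The median of the 6 was 0.131, beside 0 for all 21938 protein-coding genes and 0.142 for 2492 genes of at least 100 kb. Grik5, the densest of the 6, is too short for that last class. In a comparison added after the values were seen, each gene was set beside protein-coding genes within 1.2-fold of its own length. Grik5 was above 99.5% of 1433 such genes and Grik4 above 96.2% of 210. Grik2 was above 7.04% of 71 and Grik3 above 15.1% of 423. Grik1 and Grid1 stood nearer the middle, above 51.9% of 231 and 67.2% of 67. Without the flanks Grik5 had 0.480 per 10 kb, above 91.8% of its peers. The lowest height that was called also differed between the genes, so equal counts do not mean equal heights. It was greatest at Grik5, at 0.955 and 0.859. In replicate 1 it was least at Grik1 (0.310), and in replicate 2 at Grid1 (0.125), followed by Grik2 (0.209) and Grik1 (0.225). With only peaks above the median height of their library Grik4 had 5 distal regions (0.112 per 10 kb, above 82.4% of its peers), Grik5 had 8, and Grik2 had none. Grik3 had its 1 region then too, above 45.2% of its peers, and above 40.2% with the shorter peak list, so its low place among peers holds for the full lists only.

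**Figure D4:**
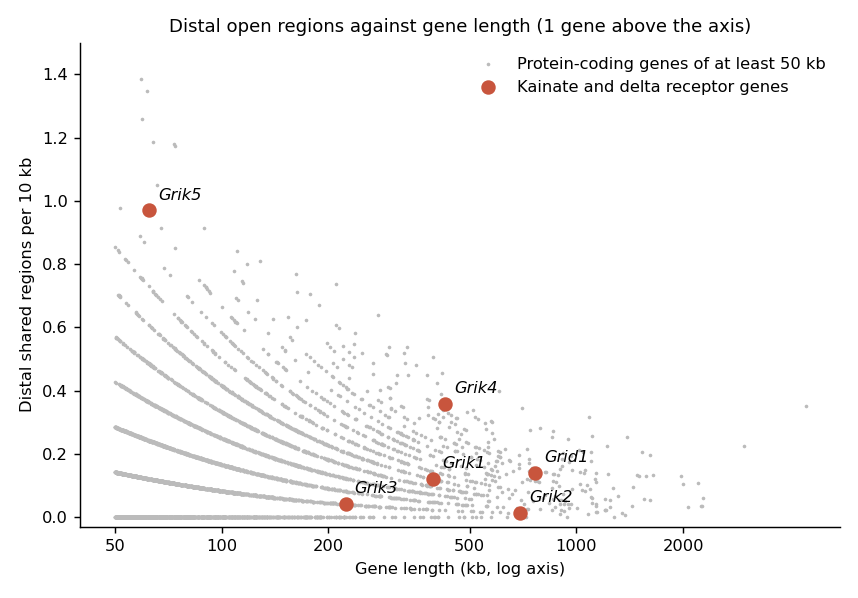
Distal shared regions per 10 kb of gene and flanks (vertical) against gene length in kb (horizontal, log axis) for 5007 protein-coding genes of at least 50 kb (grey) and the 6 receptor genes (red); 1 gene lies above the axis, and the grey bands are whole numbers of regions. Grik5 and Grik4 lie near the upper edge of genes of their length, and Grik2 and Grik3 near the lower edge.

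Apart from the second set of Grik2 start sites described above, start sites deep inside the genes had no peaks. Of annotated sites more than 6000 bp from the 5′ end, Grik1, Grik2, Grik4, Grik5 and Grid1 have 13. None had a peak of either library within 1000 bp. The distance was chosen after the values were seen and leaves out the Grik2 sites at 5357 and 5507 bp, which had peaks. Over all protein-coding genes 21.8% of 27963 such sites had a peak. The distance was not fitted to those genes, so the 2 results are not a like comparison. At 12 of the 13 sites the deposited track listed no base in either library, and at that of Grik4 it listed 11 bases in replicate 2.

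Footprints over the genes numbered 136 in replicate 1 and 210 in replicate 2. Of these, 59 (43.4%) and 57 (27.1%) overlapped a footprint of the other library, beside 54.8% and 41.3% over all footprints of the series. The share was highest at Grik5, with 24 of 38 and 22 of 48, and lowest at Grik3 in replicate 1, with 2 of 11, and at Grik2 in replicate 2, with 5 of 29. Only 4 footprints over the 6 genes had the same start and end in both libraries. Replicate 1 had no footprint in 10 of the 51 shared regions, 8 of which are at Grik4, and replicate 2 had none in 5, beside 17.1% and 11.4% of all shared regions of the series.

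Within the shared regions 83 matches to the 18 motifs were found, and in 4 the middle base lay in a footprint of both libraries. These were TTGGCA in the intron 13 region of Grik3, in the Grik4 intron 1 region chr9:42847121-42847340 and in the Grid1 region chr14:35074721-35074980, and the CTCF core in the Grik5 intron 12 region chr7:25036021-25036240. In 200 bp windows around the middle of the 42 distal regions, counting both strands, TTGGCA was present in 21.4%, beside 20.6% of all distal shared regions. TGACAG was present in 21.4% beside 17.8%, CAGGTG in 16.7% beside 14.1%, GGGCGG in 14.3% beside 10.2%, CAGATGG (an E-box of NeuroD factors) in 9.52% beside 11.8% and TGANTCA in 9.52% beside 10.7%. These shares differed from their background by less than 5 percentage points. In the same 200 bp windows of the 7 promoter regions, 3 held GGGCGG (Grik2, Grik4 and Grik5), or 42.9% beside 49.6% of all promoter regions. The GC box in the Grik1 promoter region lies outside its window. None of the 7 windows held TGACGTCA, the cAMP response element, which was in 2.53% of those of all promoter regions.

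The other genes of the pathway were read from a list of receptor partners and from the AMPA and NMDA receptor subunits. Of 15 partner names 14 matched the annotation, and 12 of the 14 had promoters called in both libraries. Those 2 with a peak in 1 library were Neto1 (0.951 in replicate 2), an auxiliary subunit of kainate receptors, and Cbln4 (0.442 in replicate 1), a cerebellin. The other auxiliary subunit gene, Neto2, had 1.28 and 1.17. The tallest partner promoter was that of Pick1, a PDZ protein that binds receptor tails, at 9.34 and 8.37, and the lowest called in both was Grip1, a scaffold of receptor tails, at 0.549 and 0.776. The neurexin gene Nrxn2 (5.04 and 3.64) was taller than all 6 receptor promoters. Among AMPA subunits 3 of 4 promoters were called in both libraries, with Gria2 the tallest (3.61 and 4.27), Gria1 the lowest in the mean (1.79 and 1.44) and Gria3 called in replicate 2 alone (0.692). Among NMDA subunits 5 of 7 had one, Grin1 being the tallest (3.07 and 2.84) and Grin3a the lowest in the mean (1.55 and 2.11), and Grin2c and Grin3b had none in either library. Grik4, the tallest kainate promoter, stood near Grin2a (2.32 and 1.71) and Grin2b (1.82 and 2.15), whereas Grik1 was below all promoters of AMPA and NMDA subunits that both libraries called.

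**Figure D5:**
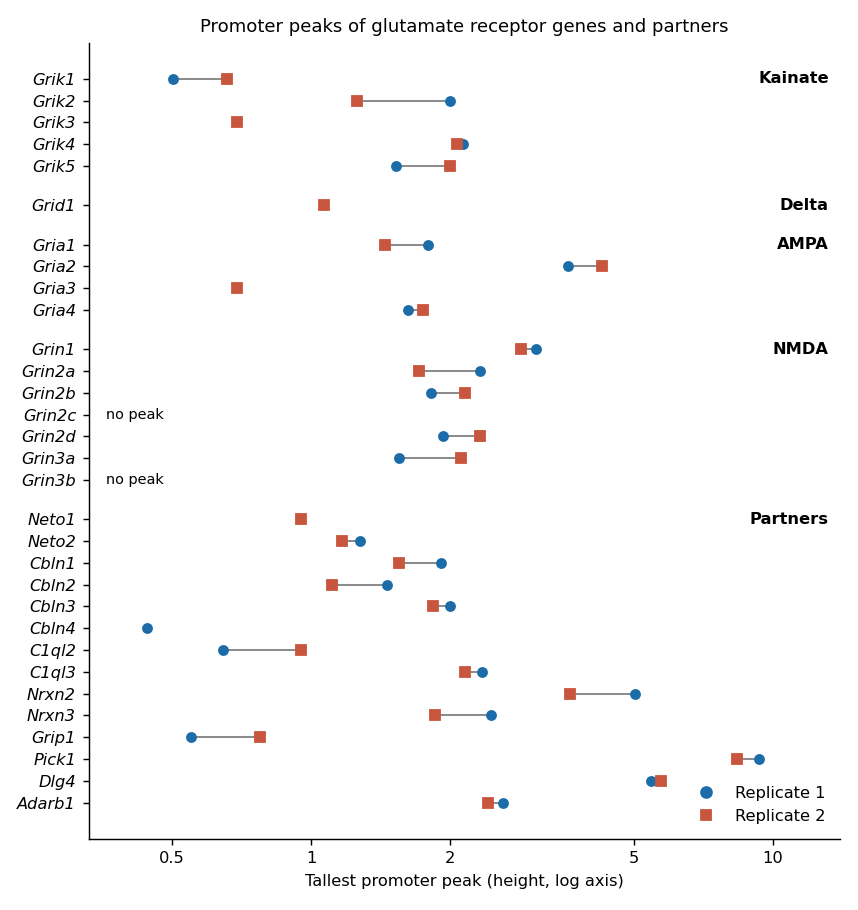
Height of the tallest promoter peak (log axis) in replicate 1 (circles) and replicate 2 (squares) for kainate, delta, AMPA and NMDA receptor genes and for receptor partners; a missing symbol is a library without a promoter peak. The kainate and delta promoters lie between 0.502 and 2.14, and Pick1 reaches 9.34.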

How the data were processed

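The authors deposited, per library and per the labels in assembly mm10, peak lists with a signal value in column 7, used here as the height, footprints, and a track of false discovery rates, a p-value or q-value unit that listed bases below 0.05. The footprints carry the constant 0.01 in that unit. The aligner and callers are not given in the sources used here, nor is read depth, so no counting interval is given and precision rests on the gap between 2 libraries. Each library has 2 peak lists, of which the longer was used. From these files, overlaps, distances and counts were computed with Python 3.11.15, numpy 2.4.6, pandas 2.3.3 and pyfaidx 0.9.0.4, against GENCODE M21 and the genome sequence of GRCm38.p6, which is mm10; mitochondrial genes were left out. The joining step was tested on simulated data. Motifs were matched in both orientations, without mismatch.

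Described were the 6 genes, their promoters, the 3 tallest distal regions of each, and peaks of 1 library alone above its median height; of other lists, the tallest, the lowest and those without a peak. The genes and lists were chosen with earlier results of these data known. A few items that were looked at are not reported here, and the partner list was counted without them. Alternatives covered the peak list, height, windows, flanks, overlap and single libraries.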

Additional observations from a re-analysis of the deposited data

How the results depend on the processing

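Of 32 alternative values for the 4 counted results, 17 stayed within 1.5-fold of the reported count or, for the median density, within the SD of the libraries taken alone (0.00353). That SD is the gap between 2 medians that count all peaks of a library. It does not measure the spread of the median over shared regions. The limit for the median is far narrower than that for the counts, so the tally mixes unlike limits. With the shorter peak list, promoter peaks in both libraries remained at 2 genes (Grik2 and Grik4), shared regions fell to 29 and the median density was 0.0986 per 10 kb. Peaks above the median height of their library gave 29 shared regions and a median of 0.0624. The median was 0.0930 where 50% of each peak had to be covered by the other and 0.135 without flanks. Shared footprints numbered 33 without flanks and 4 with the same start and end. Leaving out a library, so that all peaks of the other counted, gave 4 to 6 genes with a promoter peak, 83 to 94 regions, a median density of 0.259 to 0.264 and 136 to 210 footprints. The promoter peaks of Grik3 and Grid1 and 7 of the 8 distal peaks of Grik2 rest on replicate 2 alone. A promoter window of 500 bp left 3 genes, without Grik5. Counting a motif where any base, not the middle, lay in a footprint moved the matches from 11 to 14 in replicate 1 and from 15 to 25 in replicate 2. No paired analysis was possible because there is 1 group. Read depth is unknown, so a missing peak is not evidence of closed DNA.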

Other observations

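Over the receptor genes, 31 peaks were found in replicate 1 only and 39 in replicate 2 only, with median heights of 0.633 and 0.592. Their median GC content was 50.9% in replicate 1 and 53.8% in replicate 2, beside 50.2% and 54.7% for all such peaks of the series. The other library listed bases with a false discovery rate below 0.05 in 7 of the 31 and 3 of the 39, beside 19.5% and 13.3% of all such peaks. Besides the Grid1 region given above, 2 shared regions lay outside the central 95% of log2 ratios, both taller in replicate 2: the Grik5 intron 12 region chr7:25036021-25036240 (1.04 and 1.68, log2 ratio 0.69) and the Grik4 region in coding exon 15 (0.764 and 1.19, log2 ratio 0.64).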
